A study of Homo sapiens with 16 samples.

Results

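The comparison described here lies within the BMP4-treated arm of a time course in H1 cells, an established human embryonic stem cell line. Arrays of BMP4 days 5, 6 and 7 (the late window, 3 arrays) were set against arrays of BMP4 days 1, 2 and 3 (the early window, 3 arrays), so 6 of the 16 arrays of the study carry it. The BMP4 arm received 100 ng/ml BMP4 and the other arm none. Both were grown on Matrigel in mTeSR medium, with 1 array for each arm and day from day 0 to day 7. The untreated arrays of days 5 to 7 (3 arrays) and days 1 to 3 (3 arrays) served to show what culture time did without BMP4. Those of days 1 to 3 also entered the rule for induced genes given below. The 3 days of a window stood as its replicates and no day was repeated. Every p-value between windows thus rests on the spread between days of a window, drift within the window included. That spread was pooled over the windows of both arms and moderated across genes. It can therefore be too small for a gene that drifted mainly in 1 window. H1 is 1 line, and whether the days came from separate cultures is not given in the sources used here.

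BMP4 is a secreted ligand of the TGF-beta superfamily. It binds paired type I and type II receptor kinases, which phosphorylate SMAD1, SMAD5 and SMAD9, and these enter the nucleus with SMAD4 and switch on direct targets such as the ID genes and the pathway's own inhibitors. In human pluripotent cells BMP4 also sets off WNT3 and NODAL, the ligands that lead cells into the primitive streak, the transient region of the embryo from which mesoderm and endoderm leave the epiblast. With longer exposure such cultures are known to lose pluripotency factors and to take on trophoblast-like, amnion-like or extraembryonic mesoderm-like expression, depending on the medium.

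The promoters of 4 genes are shown first because they belong to genes that stand for 3 courses below: NODAL peaked early, CDX2 and BAMBI were held, and COL6A3 rose late. Each run is the 250 bases before the annotated gene start, from RefSeq on build GRCh38.p14, 5′ to 3′ on the gene's strand. Capitals mark 2 motifs of the SMAD proteins, CAGAC and GGCGCC, searched on both strands, so that GTCTG is the first motif read on the other strand.
NODAL, chr10:70441682-70441931, minus strand: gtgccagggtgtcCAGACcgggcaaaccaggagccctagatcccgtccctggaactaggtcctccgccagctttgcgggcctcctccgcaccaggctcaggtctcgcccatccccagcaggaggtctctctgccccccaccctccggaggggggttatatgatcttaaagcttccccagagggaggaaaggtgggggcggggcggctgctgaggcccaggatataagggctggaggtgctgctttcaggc
CDX2, chr13:27969316-27969565, minus strand: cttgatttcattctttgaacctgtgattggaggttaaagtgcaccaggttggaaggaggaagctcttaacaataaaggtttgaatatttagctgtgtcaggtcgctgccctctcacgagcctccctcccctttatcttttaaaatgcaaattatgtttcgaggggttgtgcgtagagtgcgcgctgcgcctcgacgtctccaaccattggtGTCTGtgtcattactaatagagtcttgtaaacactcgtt
BAMBI, chr10:28677271-28677520, plus strand: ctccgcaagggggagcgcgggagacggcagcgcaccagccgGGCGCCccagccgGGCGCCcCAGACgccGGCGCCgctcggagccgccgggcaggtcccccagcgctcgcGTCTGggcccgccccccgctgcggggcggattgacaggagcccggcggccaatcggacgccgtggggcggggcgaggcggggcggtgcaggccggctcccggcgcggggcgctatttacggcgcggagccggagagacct
COL6A3, chr2:237414165-237414414, minus strand: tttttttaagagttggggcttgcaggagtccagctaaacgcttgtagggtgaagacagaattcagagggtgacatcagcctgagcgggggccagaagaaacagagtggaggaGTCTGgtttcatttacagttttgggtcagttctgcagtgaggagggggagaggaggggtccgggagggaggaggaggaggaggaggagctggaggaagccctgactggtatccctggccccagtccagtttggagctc
BAMBI held 5 matches and the other 3 promoters 1 each. Other named genes of these classes differed. TBXT, EOMES, HOPX, NPY, TFAP2A and ID2 held neither motif, while CLDN10, COCH, SLC39A2, EGFLAM, GATA3 and SAMD11 held at least 1 match. CAGAC was found in 37.8% of all 27305 promoters of that length and GGCGCC in 16.1%. Among the genes tested here with a promoter in the reference table, CAGAC lay in 36% of 10577, against 40.2% of 590 late risers, 52% of 25 early-peak genes and 30% of 60 held genes. GGCGCC lay in 25.2% of the tested genes, against 22.5% of late risers, 24% of early-peak genes and 30% of held genes. A match is a string of letters and shows no binding.

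Levels are given as log2 of the background-corrected array intensity with 16 added, and a difference of 1 is a 2-fold change. A level of 5.05 is the detection floor, so smaller values are not well above background. The stem cell label was borne out by the first array of the arm, on which POU5F1, SOX2 and NANOG stood at 12.40, 10.80 and 8.64. The day 0 arrays of the arms were not alike: 658 genes were at least 2-fold higher and 369 at least 2-fold lower on the BMP4 day 0 array than on the untreated one, each a single array. NODAL, for example, stood at 8.36 on BMP4 day 0 against 6.59 on untreated day 0. Whether BMP4 had been added by then is not given in the sources used here. A gene was therefore called induced only if its mean over BMP4 days 1 to 3 was at least 2-fold above both the BMP4 day 0 array and the mean of untreated days 1 to 3.

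The BMP4 arm went on changing after its first 3 days. Of 13395 genes tested, 4384 (32.7%) differed between the late and the early window at an adjusted p under 0.05 in limma, 2070 higher (15.5%) and 2314 lower (17.3%). Changes of at least 2-fold were found for 781 higher genes (5.83%) and 525 lower genes (3.92%). In the untreated arm the same windows differed for 58 genes (0.433%), 38 of them higher (0.284%) and 20 lower (0.149%), while 1440 (10.8%) had an unadjusted p under 0.05. The change itself differed between the arms for 2086 genes (15.6%), 1105 with the higher (8.25%) and 981 with the lower change (7.32%) under BMP4. Differences of at least 2-fold made up 5.27% in the higher and 3.43% in the lower direction, and untreated changes of that size 0.202% and 0.0597%. A test of the course over BMP4 days 1 to 7 called 4841 genes (36.1%), which included 84.0% of the genes called between the windows. These are whole cultures, in which fewer cells of a type and less RNA per cell cannot be told apart.

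**Figure D1:**
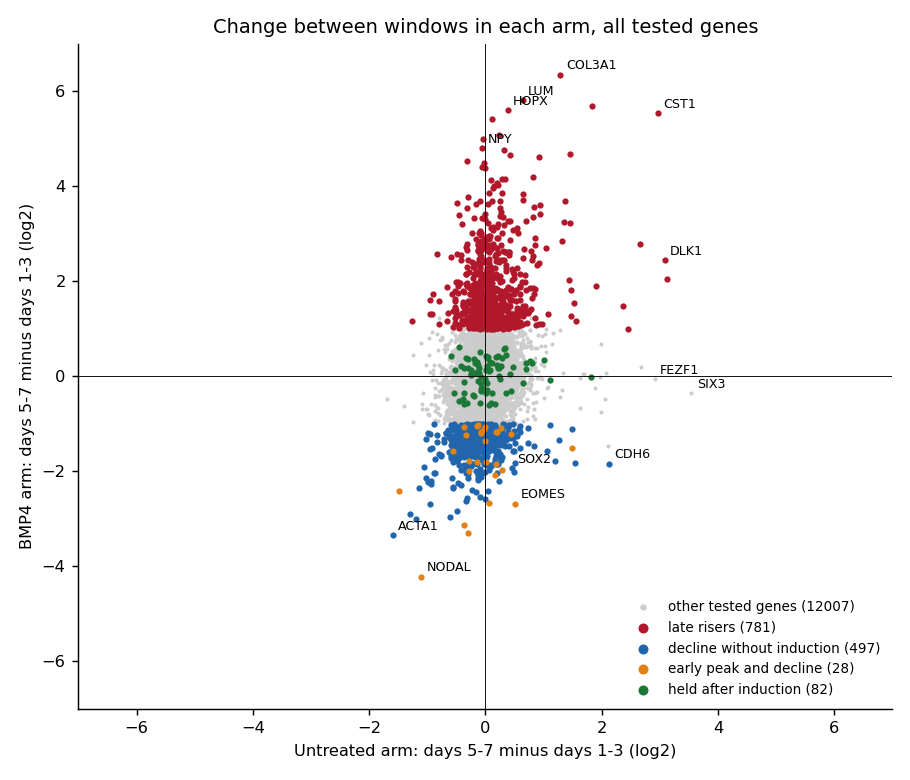
Change between days 5-7 and days 1-3 for each of the 13395 tested genes, in the BMP4 arm (vertical axis, log2) and in the untreated arm (horizontal axis, log2), with the 4 classes coloured. The BMP4 changes reach 6.35 for COL3A1, and the untreated changes reach 3.54 for SIX3.

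By their course the changed genes fell into 3 classes, to which a class of held genes was added. Late risers were the 781 genes higher by at least 2-fold. Early peak and decline held 28 genes (0.209% of those tested) that had been induced and then fell by at least 2-fold, and a further 497 (3.71%) fell by at least 2-fold without having been induced. Induction was seen for 291 genes (2.17%). Of these, 109 were late risers, 82 (0.612% of all tested) were held, meaning that the 95% confidence interval of their change lay within 2-fold either way, 28 fell, and 72 met none of these rules.

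**Figure D2:**
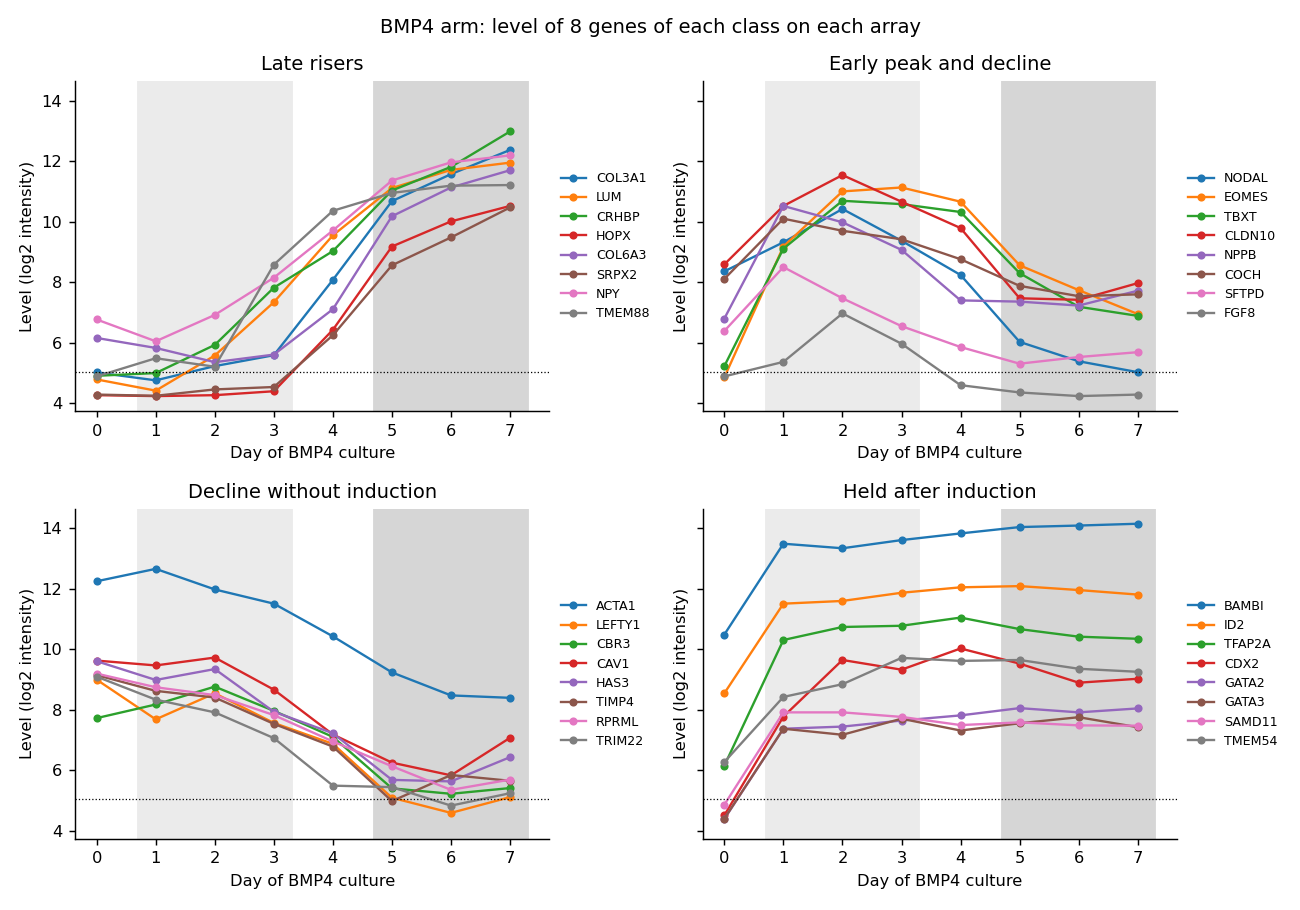
Level (log2 intensity) of 8 genes of each class on every array of the BMP4 arm, day 0 to day 7, 1 point per array. The light band is the early window, the dark band the late window, and the dotted line the detection floor of 5.05; the late risers end between 10.47 and 12.98.

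Several of the steepest late risers coded for secreted and matrix proteins. COL3A1, the chain of fibrillar type III collagen, stood at 10.68, 11.57 and 12.37 on BMP4 days 5, 6 and 7, against 4.76, 5.23 and 5.59 on days 1, 2 and 3. Its windows did not overlap, which was a condition for naming the steepest risers here. COL3A1 was higher by 6.35 ± 0.40 (log2, SE, 3 arrays in each window, limma adjusted p = 3.59e-08), an 81.5-fold change. LUM, lumican, a small proteoglycan that binds collagen fibrils, had levels of 11.11, 11.71 and 11.95 late against 4.42, 5.58 and 7.34 early, higher by 5.81 ± 0.50. COL6A3, a chain of microfibrillar type VI collagen, had 10.18, 11.13 and 11.70 against 5.83, 5.36 and 5.61, higher by 5.41 ± 0.31. SRPX2, a secreted sushi-repeat protein, had 8.56, 9.48 and 10.47 late, and none of its early arrays, at 4.25, 4.46 and 4.54, lay above the floor, so it was at least 21.9-fold higher. For the matrix protein EGFLAM the change was 4.67 ± 0.37, with every late array, at 9.44 to 11.26, above every early one, while 2 dimmer probes gave 0.39 and 0.62.

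The other steepest risers were of mixed function. HOPX, an atypical homeodomain protein of the developing heart, was not above the floor on days 1 to 3 (4.24, 4.27 and 4.40) and reached 9.18, 10.01 and 10.52 on days 5 to 7, at least 28.9-fold higher. CRHBP, which binds corticotropin-releasing hormone, had 11.03, 11.81 and 12.98 late against 5.00, 5.93 and 7.82 early, and NPY, the precursor of neuropeptide Y, had 11.36, 11.96 and 12.19 against 6.05, 6.92 and 8.15. TMEM88, a membrane protein that dampens Wnt signalling, had 10.95, 11.19 and 11.21 late against 5.49, 5.21 and 8.58 early, so its day 3 array already lay well above the 2 before it. The zinc transporter SLC39A2 rose by 4.99 ± 0.46, and CST1, a secreted inhibitor of cysteine proteases, by 5.54 ± 0.76. A probe annotated to UGT2B11, of a family of near-identical glucuronosyltransferases that the array may not separate, rose by 4.77 ± 0.46. In the untreated arm none of these 12 passed the test, but CST1 had a change of 2.96 there, with an adjusted p of 0.115 in limma, and the difference of its changes between arms did not pass either (2.58, adjusted p = 0.118).

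The level increased from day 5 through day 6 to day 7 in 460 of the 781 late risers (58.9%), against 21.3% of all tested genes, and decreased through these days in 60 (7.68%), against 21.4%. All late arrays lay above all early ones for 761, against 20.4% of all tested genes, again a contrast the rule used. On the early arrays 107 of the 781 were not above the floor at all, against 837 of all 13395 tested genes. The change differed from that of the untreated arm for 639 (81.8%), against 15.6% of all tested genes. The BMP4 change that set the class is part of that difference, so a high share follows in large part from the rule. Of the 781, 10 also passed the test in the same direction in the untreated arm. Of all 13395 tested genes, 37 passed in the untreated arm in the direction of their BMP4 change.

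Early peak and decline was the smallest class, and 7 of its 28 genes were on the list of primitive streak genes. NODAL, the TGF-beta family ligand that patterns the streak, stood at 6.03, 5.39 and 5.03 on BMP4 days 5, 6 and 7, against 9.32, 10.42 and 9.37 on days 1, 2 and 3. It was lower by 18.7-fold, fell by 4.22 on the log2 scale (SE 0.32, limma adjusted p = 1.41e-07), and ended below its day 0 array of 8.36. TBXT, or brachyury, the T-box factor of the streak and notochord, had 8.30, 7.19 and 6.89 late against 9.11, 10.69 and 10.58 early, a change of -2.66 ± 0.37. EOMES, the T-box factor of the anterior streak, had 8.56, 7.74 and 6.95 against 9.18, 11.00 and 11.13, a change of -2.68 ± 0.50. Unlike NODAL, both stayed well above their day 0 arrays, at 5.23 for TBXT and 4.86 for EOMES.

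WNT3, the ligand upstream of NODAL in the streak, was induced by day 1 and declined least, with 7.63, 7.67 and 7.29 late against 8.37, 8.81 and 8.48 early (-1.02 ± 0.20). FGF8, a growth factor of the streak, had 4.36, 4.24 and 4.29 late, none above the floor, against 5.37, 6.97 and 5.97 early, and was at least 2.08-fold lower. The homeobox factor MIXL1 had 7.58, 5.83 and 5.41 late against 7.12, 10.73 and 10.33 early. Its day 1 array lay below its day 5 array, so the windows overlapped, with a change of -3.12 ± 0.69 (adjusted p = 0.00226 in limma). SP5, a transcription factor that responds to Wnt, also overlapped, at 7.81, 7.07 and 7.19 late against 7.41, 9.83 and 9.35 early.

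Of the 18 tested members of a list of 22 streak and early mesoderm genes, 2 rose, 7 fell and 9 did not pass. Over all tested genes 15.5% rose and 17.3% fell. The list's median change was -0.29, against -0.04 for all genes tested. The median was -0.89 without the day 1 array, -0.66 without day 5, -0.18 without day 7 and, with its sign turned, 0.03 without day 3. All 7 that fell were early-peak genes, and 12 of the 18 were induced. The 2 that rose were FOXA2, a forkhead factor of the anterior streak and endoderm, and APLNR, the apelin receptor of early mesoderm. APLNR had 12.46, 12.18 and 11.77 late against 4.98, 9.19 and 11.60 early, with a day 1 array not above the floor; its change of 3.55 was 1.74 without that array, and over the 6 BMP4 arrays only its adjusted p was 0.0695 in limma. Several members peaked across the border of the windows and did not pass. MESP1, the factor that starts cardiac mesoderm, had 5.18, 9.11 and 10.59 on days 1 to 3, 10.32 on day 4 and 9.32, 8.23 and 6.72 on days 5 to 7 (adjusted p = 0.893). CER1, a secreted antagonist of NODAL and BMP, had 10.77 on day 3, 10.65 on day 4 and 5.78 on day 7 (adjusted p = 0.103). The summed intensity of the list ran from 6126 to 11283 over the late arrays and from 3019 to 16068 over the early ones, so the windows overlapped.

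**Figure D3:**
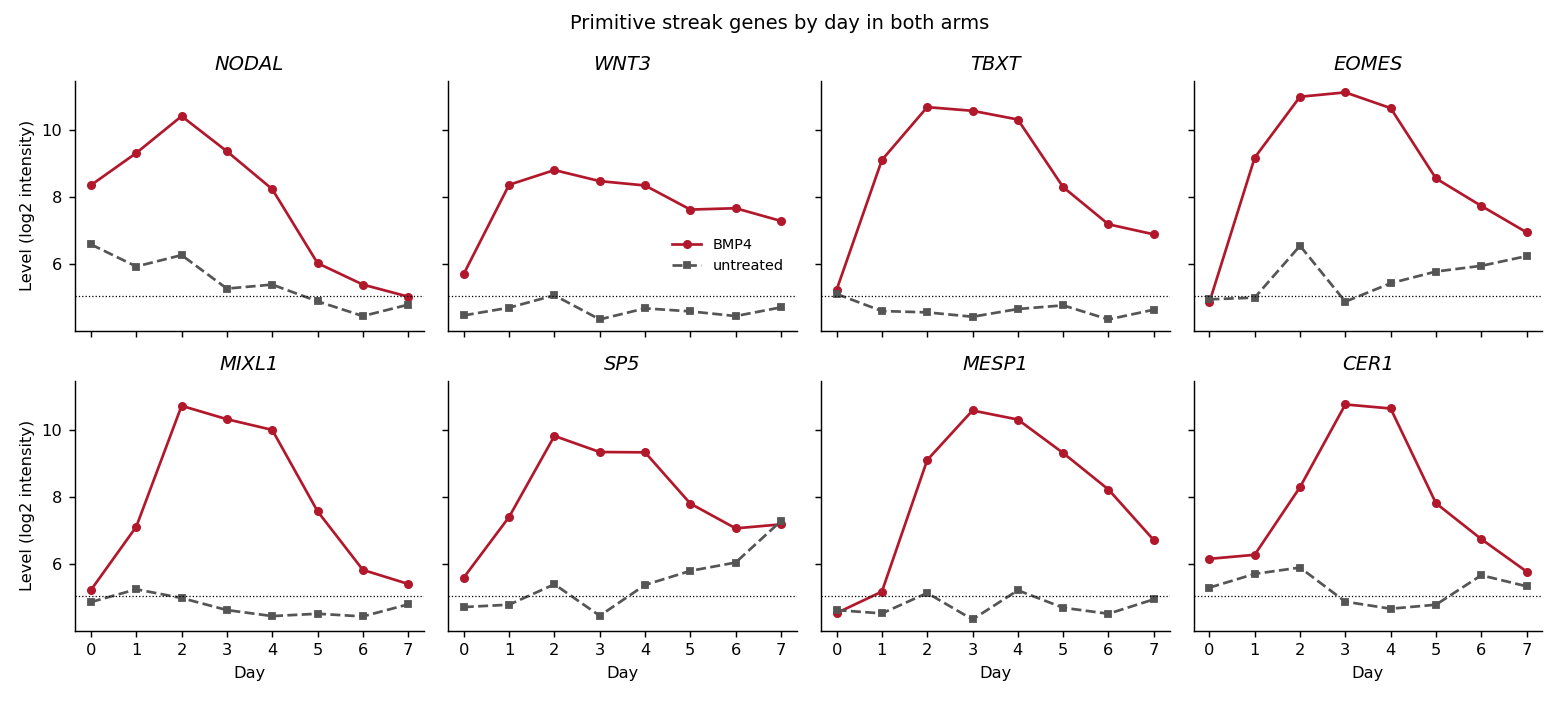
Level (log2 intensity) of 8 primitive streak genes on each day, BMP4 arm in red and untreated arm in grey, 1 array per point, with the detection floor dotted. Under BMP4 all 8 are highest on day 2 or day 3, and MESP1 and CER1 reach that peak on day 3.

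The remaining members of the class were not streak genes. CLDN10, a claudin of tight junctions, had 7.47, 7.42 and 7.97 late against 10.52, 11.54 and 10.66 early (-3.29 ± 0.22). NPPB, the precursor of a natriuretic peptide, was highest on day 1 and had 7.36, 7.23 and 7.72 late against 10.52, 9.98 and 9.07 early. It also fell in the untreated arm (-1.49, adjusted p = 0.0287 in limma), and the difference between arms did not pass. COCH, an extracellular matrix protein best known from the inner ear, changed by -2.07 ± 0.18, and SFTPD, a collectin of lung surfactant, by -1.99 ± 0.34. FAM167A, AMER2, LRRN2 and TTC29 had changes between -1.97 and -1.78, with a dimmer LRRN2 probe at 0.07. The other 13 changed by between -1.58 and -1.05: they include HPGD, which breaks down prostaglandins, CD1D, which presents lipid antigens, the carbonic anhydrase CA12, and the transcription factors EBF3, MKX and DMRTA2. Over the class, 16 of 28 were highest on day 2, 7 on day 3 and 5 on day 1. Of all 13395 tested genes 1326 were highest on day 2, but the rule for the class favours a maximum on days 1 to 3. Windows did not overlap for 22, against 24.0% of all tested genes whose late arrays lay below all early ones, a contrast the rule itself used. Of the 28, 9 had a late mean at or below the BMP4 day 0 array. For 17 (60.7%) the change differed between arms, against 15.6% of all tested genes, and the rule used the BMP4 change here too.

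The 497 genes that declined without having been induced mostly decreased from the first days on. Their level decreased from day 1 through day 2 to day 3 in 308 (62.0%), against 22.8% of all tested genes. For 250 the highest array of the arm was day 0, against 2943 of all 13395, and the rule favours an early maximum. ACTA1, the actin of skeletal muscle, had 9.24, 8.48 and 8.40 late against 12.66, 11.98 and 11.51 early (-3.35 ± 0.28, limma adjusted p = 4.45e-07). It fell by 1.59 in the untreated arm as well, and the fall under BMP4 was the larger (difference -1.76, adjusted p = 0.00712). LEFTY1, a secreted inhibitor of NODAL, had 5.10, 4.60 and 5.12 late, with a mean below the floor, against 7.69, 8.55 and 7.57 early, at least 7.20-fold lower.

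CBR3, a carbonyl reductase, had 5.41, 5.23 and 5.42 late against 8.18, 8.77 and 7.97 early. CAV1, the coat protein of caveolae, had 6.26, 5.84 and 7.08 against 9.47, 9.73 and 8.67, and another CAV1 probe changed by -1.62 rather than -2.90. HAS3, which makes hyaluronan, TIMP4, an inhibitor of metalloproteinases, RPRML and the antiviral protein TRIM22 changed by -2.83, -2.69, -2.62 and -2.59, and a dimmer HAS3 probe by -0.53. The late windows of all 8 genes lay below their early windows, which was a condition for naming them.

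Pluripotency genes were the clearest group here: of 27 tested, 22 fell, none rose and 5 did not pass, with a median of -1.26. POU5F1 had 10.83, 10.72 and 10.48 late against 12.40, 12.42 and 12.05 early (-1.61 ± 0.13, limma adjusted p = 3.81e-07), while a dimmer POU5F1 probe changed by -0.44. SOX2 had 7.56, 7.45 and 7.75 against 10.26, 9.61 and 8.70 (-1.93 ± 0.25), and NANOG 7.16, 6.69 and 6.82 against 8.89, 8.28 and 7.99 (-1.50 ± 0.20). The fall exceeded that of the untreated arm for POU5F1 (difference -1.46) and SOX2 (-2.39), but not beyond the error for NANOG (-0.58, adjusted p = 0.191), which had a change of -0.92 there. SOX3, FGF2 and VRTN changed by -2.32, -2.05 and -1.94. LIN28B, an RNA-binding protein, moved little (-0.10, adjusted p = 0.501). The summed intensity of the list was 23335 to 25468 on the late arrays and 38840 to 65683 on the early ones.

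The 82 held genes included transcription factors and feedback genes that BMP4 had raised by day 1. CDX2, a caudal-type homeobox factor of trophectoderm and posterior mesoderm, had 9.53, 8.90 and 9.03 late against 7.78, 9.65 and 9.33 early, with 4.52 on day 0. Its change was 0.23, with an interval from -0.48 to 0.95. It met the held rule in 10 of 16 alternative settings and left it without day 2, 3, 6 or 7, and its change ran from -0.34 to 0.60. TFAP2A, the AP-2 alpha factor, had 10.67, 10.42 and 10.35 against 10.31, 10.74 and 10.78, with 6.16 on day 0. GATA3 had 7.56, 7.76 and 7.43 against 7.38, 7.18 and 7.71, with 4.41 on day 0, and GATA2 had 8.06, 7.92 and 8.05 against 7.38, 7.45 and 7.65. For CDX2, TFAP2A and GATA3 the windows overlapped. GATA2 was slightly higher late (0.52, adjusted p = 0.0178 in limma), within the 2-fold limit.

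ID2, a dominant-negative partner of basic helix-loop-helix factors and a direct SMAD target, had 12.09, 11.96 and 11.81 late against 11.51, 11.60 and 11.87 early. Its change was 0.29, with an interval from -0.0035 to 0.59. In the untreated arm ID2 rose by 0.80 (adjusted p = 0.0194 in limma), and the difference of its changes between arms did not pass (-0.50). BAMBI, a decoy receptor that damps BMP signalling, had 14.04, 14.09 and 14.15 against 13.49, 13.34 and 13.61. Its change of 0.61 ± 0.10 was called and did not reach 2-fold, and it differed from the untreated change of -0.45 (difference 1.07, adjusted p = 1.65e-04). SAMD11, TMEM54 and GAD1, the enzyme that makes GABA, changed by -0.35, 0.43 and -0.02. TMEM54 met the held rule in 7 of 16 alternative settings, not without day 2, 3, 6 or 7 (changes of 0.14 to 0.79 over all 16), and GAD1 in 6, under none that left out an array (-0.50 to 0.31). A bright probe annotated to the keratin pseudogene KRT16P2, which may read other keratin transcripts, had 10.84, 10.65 and 10.30 late against 9.66, 10.58 and 11.30 early. Over the 82 genes the change ranged from -0.60 to 0.61, and 11 of them passed the test of change. Their median rise over BMP4 day 0 was 1.57 late and 1.42 early.

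Within the BMP pathway, of 16 tested genes of a list of 19, 9 rose, 2 fell and 5 did not pass, with a median of 0.61. Over all tested genes 15.5% rose and 17.3% fell. The 2 that fell were ID1 (12.30, 12.26 and 12.17 late against 13.27, 13.05 and 12.82 early, -0.81 ± 0.17) and ID3 (-0.92 ± 0.15), both relatives of ID2 and both still above their day 0 arrays of 10.92 and 11.05. Among intracellular inhibitors SMAD6 rose (10.99, 11.08 and 11.19 against 9.74, 9.77 and 9.97, 1.26 ± 0.17), and SMAD7 was held. Of the extracellular regulators BMPER rose by 3.02 ± 0.42, although a dim probe of the gene did not, and the antagonist NOG was held at 6.51, 6.58 and 6.55 against 6.58, 6.31 and 6.39. The homeobox targets MSX1 and DLX5 rose by 1.71 and 2.02. DLX5 had a change of 1.44 in the untreated arm, and the difference of its changes between arms did not pass (0.58, adjusted p = 0.601 in limma). BMP4 itself, listed with the mesoderm genes, rose by 1.23 ± 0.33, at 9.51, 9.05 and 8.89 late against 7.20, 7.72 and 8.84 early.

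Nodal and Activin signalling had 1 member higher, 5 lower and 7 not passing of 13 tested (median -0.23). NODAL, LEFTY1, GDF3 (-2.15 ± 0.27), INHBE (5.67, 6.01 and 5.61 late against 10.10, 6.88 and 5.88 early) and the Activin antagonist FST (-0.74 ± 0.27) fell, and the signal transducer SMAD3 rose by 0.68. FST moved the other way in the untreated arm, higher by 1.98. Without the day 7 array 3 members were lower. Among 17 Wnt ligands and feedback genes, 7 rose and 3 fell (median 0.34), with 4 higher when day 1, 5 or 6 was left out and the median at 0.14 without day 1. DKK1, a secreted Wnt inhibitor, had 10.56, 11.05 and 11.08 late against 7.40, 8.13 and 8.88 early (2.76 ± 0.35), LEF1, a nuclear effector, rose by 2.39 ± 0.26 and TNFRSF19, a receptor that Wnt induces, by 2.86 ± 0.27, though a dimmer probe gave 1.59. TNFRSF19 also rose in the untreated arm (1.32, adjusted p = 0.0446 in limma), by less than under BMP4 (difference 1.55, adjusted p = 0.0120). WNT3, SP5 and the ubiquitin ligase ZNRF3 fell. The FGF and ERK list had 4 higher and 8 lower of 22 (median -0.19), with FGF2 and FGF8 at the low end and the ERK phosphatase DUSP6 higher by 1.33. Without day 1 or day 5 it had 5 lower, and without day 2 it had 2 higher. The Notch list had 5 higher and 1 lower of 18 (median -0.03), led by HES4 (1.38) and HEY2 (1.32). Over all tested genes 15.5% were higher and 17.3% lower. The higher share of the FGF and ERK list lies near the first, and the lower share of the Wnt list near the second.

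Most lateral and cardiac mesoderm genes rose, with 23 of 26 tested higher, none lower and 3 not passing (median 1.89). The myosin light chain MYL4 had 9.97, 10.30 and 10.26 late against 5.30, 4.89 and 6.75 early (4.53 ± 0.33), SNAI2, a repressor that acts in epithelial-to-mesenchymal transition, 10.87, 10.91 and 10.90 against 5.26, 5.60 and 8.36, and HAND2, a heart and limb factor, 9.30, 9.67 and 9.54 against 4.91, 5.29 and 6.10. GATA4, NKX2-5, FOXF1 and TCF21 rose by between 1.61 and 2.08. HAND1, at 14.12, 14.10 and 14.06 late against 9.19, 12.80 and 13.61 early, had a change of 2.23 that was 0.89 (adjusted p = 0.0775 in limma) without the day 1 array. GATA6 was not above the floor in either window's mean. The summed intensity of the list was 50771 to 53721 late and 8883 to 27590 early.

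Amnion genes had 13 higher, none lower and 6 not passing of 19 (median 0.97). GABRP, a GABA receptor subunit, had 10.54, 10.46 and 10.02 late against 5.67, 6.28 and 8.87 early, and VTCN1, an immune checkpoint ligand, had 7.93, 8.02 and 8.03 against 4.33, 4.36 and 6.61. IGFBP5 rose by 4.15 ± 0.29, and ISL1 by 2.43 ± 0.63. Trophoblast regulators and keratins were more mixed, with 9 higher, 4 lower and 13 not passing of 26 (median 0.43): EPAS1 rose by 2.68 and PPARG by 1.88, EOMES and TEAD4 fell, and TFAP2C did not pass. Without day 1 or day 5 there were 5 higher, and without day 2, 3 or 6 there were 2 lower. Over all tested genes 15.5% were higher and 17.3% lower, and the lower share of the trophoblast list lies near the second. TP63 and ELF5 did not pass the filter on dim probes. Of 37 placental hormone and syncytiotrophoblast genes 14 passed that filter, and 4 of them rose. CGA, the alpha subunit of chorionic gonadotropin, had 5.59, 5.81 and 7.27 late against 4.55, 5.03 and 5.02 early, at least 2.25-fold higher (its change of 1.36 was 0.83 without day 7), and PGF and PAPPA rose by 1.57 and 1.38. No CSH1 or PSG1 probe passed the filter. In the extravillous list 5 of 10 rose, led by the protease inhibitor TIMP3 (8.63, 8.87 and 9.75 late against 4.50, 4.92 and 5.42 early), MMP9 fell, and HLA-G did not pass.

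In blood and endothelium 9 rose, none fell and 5 did not pass of 14 tested (median 0.97, or 0.64 without day 7). TEK, an angiopoietin receptor, had 10.27, 10.90 and 11.40 late against 8.65, 8.16 and 7.83 early, LMO2 rose by 2.42 and SOX7 by 2.01. The defining genes CDH5, TAL1, GATA1, HBE1 and HBZ did not pass the filter, and ETV2 did not pass the test. The list's summed intensity was 2093 to 4486 late against 740 to 1051 early. In the endoderm list 7 rose and 1 fell of 18 (median 0.37, or 0.16 without day 1). APOA1, an apolipoprotein, had 7.42, 8.02 and 9.67 late against 4.63, 4.80 and 4.85 early. CXCR4 rose by 3.23 ± 0.71 (2.04 without its day 1 array of 4.33, below the floor). Its change in the untreated arm was 1.45, and the difference between arms did not pass (1.77, adjusted p = 0.261 in limma). SOX17 did not pass (1.04, adjusted p = 0.293), and HNF4A did not pass the filter. Of 15 smooth muscle genes 7 rose and 3 fell (median 0.26): ACTA2 had 11.08, 11.70 and 12.69 late against 10.20, 9.31 and 9.52 early, and ACTG2 fell by 2.20. Neural crest had 3 higher and 2 lower of 13 (median -0.10), among them SNAI2 and TWIST1 higher, and surface ectoderm 2 higher and 3 lower of 10 (median 0.12), with no tested KRT5 or KRT14. Both lists lie near the shares over all tested genes, 15.5% higher and 17.3% lower, and the surface ectoderm median was -0.05 without day 1, with no member lower without day 2 or day 6. The part that cells of these types had in the changes of the other lists was not tested.

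Matrix genes were mostly higher late. Of 33 extracellular matrix genes 22 rose, 1 fell and 10 did not pass (median 1.26). Besides COL3A1, LUM and COL6A3, BGN, the proteoglycan biglycan, had 10.28, 11.29 and 12.28 late against 7.85, 6.95 and 7.49 early, COL1A1 had 10.94, 11.64 and 12.17 against 9.97, 9.27 and 8.85, and LOX, which cross-links collagen, was at least 7.07-fold higher. THBS2, a thrombospondin, fell by 1.75. In the basement membrane 15 of 17 rose and none fell (median 0.91). Both main chains of type IV collagen rose, COL4A1 at 12.67, 12.99 and 13.38 late against 10.55, 10.35 and 10.70 early (2.48 ± 0.15) and COL4A2 by 2.57 ± 0.32, with the laminin chain LAMA1 higher by 1.49 and the linker NID2 by 1.52. The summed intensity of the matrix list was 42177 to 72967 on the late arrays and 12521 to 16050 on the early ones.

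Epithelial and mesenchymal genes moved apart, with the classic junction genes changing little in size. Of 27 junction genes 14 fell, 2 rose and 11 did not pass (median -0.51). CLDN10 and CLDN1 (at least 2.25-fold lower) led, while CDH1, or E-cadherin, had 11.46, 11.34 and 11.32 late against 11.88, 12.04 and 12.07 early (-0.62 ± 0.10) and EPCAM did not pass (0.11). Of 19 mesenchymal genes 17 rose, 1 fell and 1 did not pass (median 1.53): VIM, vimentin, had 13.62, 13.94 and 14.10 late against 12.20, 11.92 and 12.30 early, CDH11 rose by 3.57 ± 0.30 and PRRX1 by 3.86 ± 0.27, though a dimmer PRRX1 probe gave 1.00. CDH2, or N-cadherin, rose by 0.60. TWIST2 fell, and SNAI1 did not pass.

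Most tested HOX genes were higher late, and 3 of the 16 were above the floor on every early array, day 1 included. Of 34 listed 16 were tested, and 12 rose, 1 fell and 3 did not pass (median 1.81, and 0.64 to 2.23 over the alternative settings, lowest without the filter on dim probes). HOXB8 had 10.33, 10.41 and 10.24 late against 4.28, 6.07 and 8.73 early (3.97 ± 0.66), HOXC6 9.35, 9.58 and 9.74 against 4.68, 5.38 and 7.44 (a dimmer HOXC6 probe changed by 0.09), and HOXB7 8.48, 8.61 and 8.89 against 4.29, 5.02 and 6.94. HOXC8 was at least 6.25-fold higher. HOXD1 was the 1 that fell. The windows of these 4 risers did not overlap, and day 3 was the highest of the early arrays for each. The list's summed intensity was 5282 to 5347 late against 179 to 2033 early.

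Replication genes were mostly lower late. Of 34 S phase genes 25 fell, 1 rose and 8 did not pass (median -0.66), with MCM5, a subunit of the replicative helicase, at 9.72, 9.26 and 9.05 late against 10.23, 10.86 and 10.17 early (-1.08 ± 0.18), the licensing factor CDT1 at -1.25 and the chromatin assembly subunit CHAF1A at -1.20. TYMS rose by 0.44. Of the 36 G2 and mitosis genes 12 fell and none rose (median -0.28, and 5 lower without day 7), HMMR by the most (-0.74), and MKI67 did not pass (-0.30, adjusted p = 0.253). The difference between these lists was not tested. Among 14 cell cycle inhibitors 7 rose and none fell (median 0.42). CDKN1C had 8.55, 9.18 and 9.17 late against 6.68, 6.62 and 6.69 early (2.30 ± 0.19), CDKN2B rose by 1.84, and CDKN1A, or p21, had 12.04, 12.32 and 12.39 against 10.74, 10.84 and 11.27.

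Of 22 hypoxia and glycolysis genes 11 rose and 2 fell (median 0.65), with the collagen hydroxylase subunit P4HA1 higher by 2.07 and NDRG1 by 1.88, while VEGFA did not pass. Stress genes had 4 higher and 5 lower of 20 (median -0.10): ATF3 rose by 1.44 and ASNS fell by 0.98. Interferon and MHC class I genes had 4 higher and 7 lower of 26 (median -0.10), with the immunoproteasome subunit PSMB8 at 5.45, 5.28 and 5.24 late against 7.81, 7.46 and 7.02 early (-2.11, with dimmer probes at -1.27, -0.98 and -0.43) and the peptide transporter TAP1 lower by 3.02-fold. DNMT3B was the lowest of 7 DNA methylation genes (-1.55 ± 0.18), of which 3 fell and none rose (median -0.40), although a dimmer probe gave -0.33. The 23 housekeeping genes had 3 higher and 3 lower, the largest change being that of the transferrin receptor TFRC (-1.09), and a median of -0.02. The stress, interferon and housekeeping lists lie near the shares over all tested genes, 15.5% higher and 17.3% lower.

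**Figure D4:**
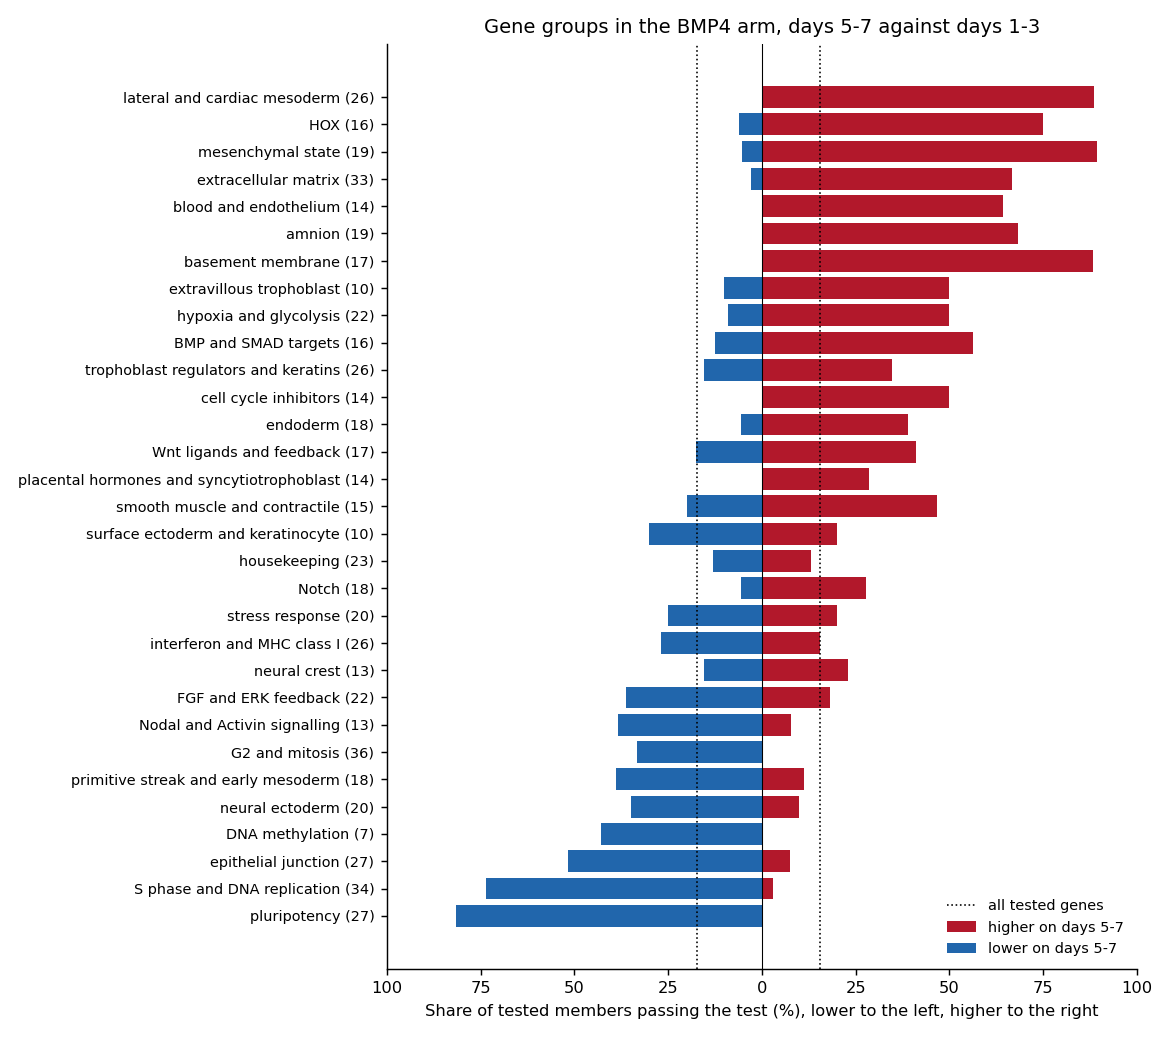
Share of the tested members of each of 31 gene lists that passed the test between days 5-7 and days 1-3 of the BMP4 arm, higher in red to the right and lower in blue to the left, with the number tested in brackets. Dotted lines mark the shares over all tested genes, 15.5% higher and 17.3% lower.

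The neural ectoderm list parted the arms. Of its 20 tested genes 2 rose and 7 fell in the BMP4 arm (median -0.35). In the untreated arm 7 rose and none fell (median 0.83). For 12 of the 20 the change differed between the arms, against 15.6% of all tested genes. In the BMP4 arm the list's summed intensity was 5304 to 7976 late against 7275 to 11520 early, and in the untreated arm 17897 to 25996 against 13444 to 15702. SIX3, an anterior neural homeobox factor, had 4.39, 4.41 and 4.66 on BMP4 days 5 to 7 against 5.17, 4.94 and 4.39 on days 1 to 3, with neither mean above the floor. On the untreated arrays it had 7.21, 8.04 and 9.56 late against 4.26, 4.52 and 5.41 early. The difference of its changes was -3.88 ± 0.61 (adjusted p = 5.00e-04 in limma). CDH6, a cadherin of neural crest and kidney, and SOX21, a neural relative of SOX2, had differences of -3.96 and -3.37. LHX2 had -3.58, with an adjusted p of 0.0263 in limma that was no longer under 0.05 in 11 of 22 alternative settings. The largest positive differences were those of COL6A3 (5.30 ± 0.44), HOPX (5.22 ± 0.38), LUM (5.17 ± 0.71), COL3A1 (5.05 ± 0.57) and SLC39A2 (5.03 ± 0.65). DLK1, a Notch-family ligand that imprinting regulates, rose in both arms, by 2.45 ± 0.64 under BMP4 and 3.08 ± 0.64 without it, and NANOG's change of -0.92 in the untreated arm had an adjusted p of 0.0585.

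The day 4 array lies in neither window. For the 781 late risers a median of 47.7% of the late minus early change was present on day 4 (quartiles 26.7% and 68.3%). The level lay above all 3 early arrays for 622, against 3389 of all 13395 tested genes. It still lay below all 3 late arrays for 707, against 4506 of all tested genes. The rule for the class used these same windows. HOPX had 6.43 on day 4, COL3A1 8.08 and COL6A3 7.11, well under their day 5 levels, while TMEM88 at 10.36 and GABRP at 10.28 were near their late levels. For the 28 early-peak genes a median of 27.0% of the fall was present. Of them 25 were still above all 3 late arrays, against 4851 of all tested genes. TBXT, EOMES and MIXL1 stood at 10.32, 10.66 and 10.01 and dropped on day 5, whereas NPPB, at 7.40, had already reached its late level. For the 497 genes that declined without induction the median was 57.2%. Of the 82 held genes 78 were within 2-fold of their early mean on day 4. The held rule favours this, since it keeps the windows on either side of day 4 within 2-fold of each other. The share over all tested genes was not counted. From day to day, 550, 320, 254, 196, 284, 42 and 59 genes moved at least 2-fold over the 7 steps of the BMP4 arm, the first ending on day 1. In the untreated arm these steps moved 623, 36, 91, 69, 32, 72 and 161 genes. The BMP4 steps ending on days 1, 6 and 7 were thus smaller than the untreated ones. The correlation with the BMP4 day 7 array, across genes, which are not independent replicates, was 0.892, 0.919, 0.928, 0.948, 0.966, 0.986 and 0.991 for BMP4 days 0 to 6, and 0.880 to 0.894 for the untreated arrays.

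**Figure D5:**
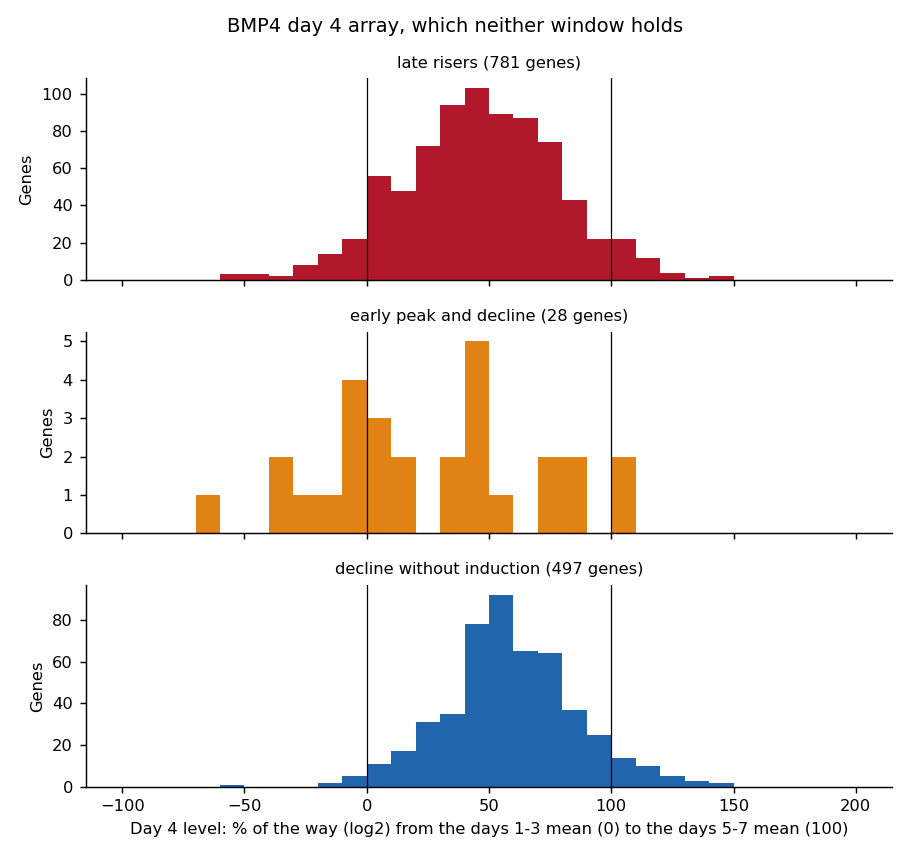
Position of the BMP4 day 4 level on the way from the early mean (0%) to the late mean (100%) on the log2 scale, as counts of genes in bins, for late risers, early-peak genes and genes that declined without induction. The medians are 47.7%, 27.0% and 57.2%.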

How the data were processed

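Total RNA of 16 samples, 1 for each arm and day, was hybridised as biotinylated cRNA to Illumina bead arrays, per the labels' protocols. The authors' deposited intensities are linear and share 1 distribution (largest gap between arrays 0.00215 on the log2 scale), so they had been quantile normalised. Their background had not been subtracted, and the software is not given in the sources used here. Quantile normalisation fixes the share of probes above background at 42.6% on every array, so a shift of all genes could not be seen.

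Of 47323 probes, 30113 had 1 gene symbol, 8 several and 17202 none, and 30074 were matched to RefSeq. Background was set from the values (mode 117.3, SD 7.65), corrected by normexp with an offset of 16, and log2 levels were taken. A probe had to exceed the 99th percentile of background (134.3) on at least 3 arrays, and the brightest probe stood for its gene, which left 13395 of 20046 genes. For genes named by rule, another probe above that limit on at least 3 arrays whose change differed by over 1 (log2) is given beside the gene. limma 3.58.1 in R 4.3.3 fitted 1 mean for each of 8 groups (windows, day 0 and day 4 of each arm) with an intensity trend, leaving 8 residual degrees of freedom, and p-values were adjusted over all genes by Benjamini-Hochberg. Both arms thus shared a single error for each gene. For SNAI2 the SE was 0.53, with an SD of 1.70 over the early and 0.02 over the late BMP4 arrays. A spline of 2 degrees of freedom tested the BMP4 course, with its error taken about that curve. "At least" marks a fold against a window whose mean was not above the floor. The fit was tested on simulated data. A further 32 columns of another deposited table matched no sample label and were not used, so neqc could not be run.

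The members and the gene lists were chosen with earlier results of these data known. The genes named were POU5F1, NANOG and SOX2; the 12 late risers, 12 early-peak genes and 8 other declining genes with the largest change and no overlap between windows; the 10 held genes highest over BMP4 day 0; the 5 largest differences between arms in each direction; and the 3 largest called changes of each list (1 where none was called). Others are examples chosen after their values were seen. Because nothing says that the days came from separate cultures, p-values measure the spread between arrays of different days.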

Additional observations from a re-analysis of the deposited data

Results flagged for a closer look

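The change between days 5-7 and days 1-3 differed between the BMP4 and the untreated arm, by the interaction term of the limma fit, for the following named genes. All values are BMP4 change minus untreated change on the log2 scale.

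Among late risers the difference was 5.30 for COL6A3, 5.22 for HOPX, 5.17 for LUM, 5.05 for COL3A1, 5.03 for SLC39A2, 4.85 for NPY, 4.84 for SRPX2, 4.45 for UGT2B11, 4.25 for EGFLAM, 3.85 for CRHBP and 3.23 for TMEM88. For the held gene BAMBI it was 1.07.

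Among genes that peaked early it was -3.20 for EOMES, -3.11 for NODAL, -2.99 for CLDN10, -2.73 for TBXT, -2.26 for FAM167A, -2.24 for COCH, -2.01 for AMER2, -1.81 for FGF8, -1.72 for SFTPD, -1.66 for LRRN2 and -1.49 for TTC29.

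Among genes that declined without induction it was -2.58 for TRIM22, -2.39 for SOX2, -2.36 for HAS3, -2.35 for CBR3, -2.28 for RPRML, -1.80 for LEFTY1, -1.76 for ACTA1, -1.75 for TIMP4, -1.61 for CAV1 and -1.46 for POU5F1. The genes with the most negative differences were CDH6 at -3.96, SIX3 at -3.88, LHX2 at -3.58 and SOX21 at -3.37. Their changes in the untreated arm were 2.12, 3.54, 2.11 and 1.54, of which that of SIX3 passed the test. Of 76 further list members named by rule, the change differed between arms for 60, against 15.6% of all tested genes. These members were named for the largest BMP4 changes of their lists, and that change is part of the difference.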

How the results depend on the processing

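With 1 array per day, 3 per window and signals near background for many genes, small changes of dim genes were not resolved. Without background correction there were 354 late risers, 139 genes that declined without induction, 13 early-peak and 40 held genes, and with an offset of 50 there were 520, 276 and, for the early peak, 14. In the untreated arm 20 genes were called higher and 7 lower without the filter on dim probes, with 16 and 5 without the intensity trend, 10 and 0 with a late window of days 4 to 7, and 17 and 9 with an early window of days 2 and 3. With the late window of days 4 to 7 there were also 17 early-peak genes and 660 higher and 577 lower differences between arms. Held genes numbered 127 with the early window of days 2 and 3, 150 with induction set against the untreated day 0 array, and 17 with a margin of 1.5-fold. Leaving out 1 array at a time gave 17 to 41 early-peak genes (17 without BMP4 day 2), 64 to 130 held genes (130 without BMP4 day 1), 713 to 894 late risers and 403 to 685 other declining genes. It gave 1594 to 2170 higher and 1624 to 2445 lower genes, 3768 to 4701 by the course, 818 to 1386 higher and 657 to 1390 lower differences, and, in the untreated arm, 7 to 49 higher and 0 to 25 lower.

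Among medians of at least 0.1 in size, 3 lists changed sign: neural crest was 0.05 with probes averaged, surface ectoderm -0.05 with the early window of days 2 and 3 or without BMP4 day 1, and the streak list 0.03 without BMP4 day 3. Leaving out 1 array gave -0.89 to 0.03 for the streak and -0.05 to 0.23 for surface ectoderm. The smaller medians of the Notch (-0.03) and housekeeping (-0.02) lists also took both signs. The cause was not tested. Of 496 list medians under alternatives, 454 stayed, 38 moved and 4 reversed. The moved ones include 0.93 for lateral mesoderm, 0.82 for HOX and 0.38 for blood and endothelium without background correction. Of 1831 values for 115 named genes other than held ones, 1800 kept their direction and side of the threshold, 30 lost the call, 1 gained it and none reversed. HAND1 lost its call in 8 settings and LHX2 its difference in 11. Of 160 values for the 10 named held genes 135 stayed held; the 25 others were those of GAD1 (10), TMEM54 (9) and CDX2 (6), and the changes of CDX2, GAD1, KRT16P2 and TFAP2A, none of them called, took both signs.

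With day as a replicate block, 1121 differences between arms were higher and 1014 lower, against 1105 and 981 without it. Deviations of same-day arrays of the arms from their window means correlated at -0.04 to 0.28 across genes, highest on day 2. Whether same-day arrays of the arms shared a culture or a batch was not tested. Neqc was not run.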
